A study of Mus musculus with 6 samples.

Results

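The genes described here are 32 mouse genes of the NRF2, glutathione and thioredoxin defence against oxidants, given as a list of symbols and found in the deposited expression table by their Ensembl identifiers. All 32 were among the 23154 genes of the table, and 31 were expressed highly enough to be tested. Polyadenylated RNA was sequenced from RAW264.7, a mouse line with macrophage properties. The 3 NUR77 cultures came from a stable line labelled pINDUCER20b-HA-NUR77, in which doxycycline switches on NUR77 with an HA tag (Nr4a1 is the gene of this nuclear receptor). The 3 GFP cultures came from a stable line labelled pINDUCER20b-GFP, which makes green fluorescent protein instead. All 6 dishes received doxycycline at 1 µg/mL for 18 hours, beginning 24 hours after plating, the labels name no inflammatory or oxidant stimulus, and no cells without doxycycline were analysed here. Each group is a single stable line, whether clonal or not is not stated, so the transgene and any other difference between the lines cannot be told apart, and a p-value covers only how dishes of a line vary.

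NRF2, encoded by Nfe2l2, is a transcription factor that KEAP1 holds in the cytoplasm and delivers to the proteasome. Oxidants and electrophiles modify KEAP1, and the freed NRF2 pairs with small MAF proteins at antioxidant response elements, which BACH1 otherwise occupies as a repressor. The genes switched on this way make glutathione, supply NADPH, reduce thioredoxin and peroxiredoxins, and degrade haem. In macrophages this system limits damage from the cell's own oxidative burst. NRF2 activity is set largely by protein stability, which transcript levels do not measure.

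The response element is shown because it is the sequence through which NRF2 and BACH1 act. Its core, TGACNNNGC, was searched on both strands in the RefSeq windows of 300 bases around the start of each gene (250 before, 50 after; build GRCm38.p6, which is mm10). Of the 32 genes, 27 had a window and 7 of these (25.9%) held the core in at least 1 window, against 16.2% of the 14699 genes of the table that had a window and 17% of the 8790 tested ones. The core can overlap the AP-1 site, TGACTCA or its reverse complement TGAGTCA, and did so in Me1 and Prdx1, whose match was TGACTCAGC on 1 of the strands. That exact sequence was present in 79 of the 14699 genes (0.537%). Sequences with G in place of C after TGA were not searched. TGAGTCAGC, for example, lies in the Srxn1 window and, on the opposite strand, in the Osgin1 window. The shares and the matches shown therefore hold for TGACNNNGC alone. Each stretch below is on the strand of its gene, 5′ to 3′, with the match in capitals. A match on the opposite strand appears as its reverse complement.
Me1 (chr9:86695912-86695920, minus strand, beginning 6 bases before the RefSeq start and inside the gene as GENCODE draws it): TGACTCAGC
Prdx1 (chr4:116685426-116685514, plus strand, 133 bases before): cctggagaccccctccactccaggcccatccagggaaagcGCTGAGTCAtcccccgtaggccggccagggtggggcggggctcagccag
Gclm (chr3:122245383-122245471, plus strand, 134 bases before): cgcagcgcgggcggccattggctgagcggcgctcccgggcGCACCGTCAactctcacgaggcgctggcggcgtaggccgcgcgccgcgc
Nfe2l2 (chr2:75704855-75704913, minus strand, 240 bases before): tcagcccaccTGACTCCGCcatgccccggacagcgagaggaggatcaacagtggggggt
Srxn1 (chr2:152105552-152105560, plus strand, 28 bases after): GCTAGGTCA

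The matches in Sod1 and in 1 of the 3 windows of Txnrd1 made up the 7. The genes with a match did not share a direction in the comparison that follows: Me1, Gclm and Sod1 rose, Nfe2l2 and Srxn1 fell, and Prdx1 and Txnrd1 were not called. A match is a description of the letters only, and binding was not measured.

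Levels are given as normalized reads, which are reads per 10000000 reads counted on genes. Depth ran from 11199468 to 15929487 reads per library. Nr4a1 was higher in the NUR77 line: its values were 170, 148 and 161 in GFP dishes and 288, 314 and 297 in NUR77 dishes (log2 fold change 0.90, limma adjusted p = 5.5e-08). Its 24 nearest tested genes had a median log2 fold change of 0.40, and 38.4% of all tested genes were called higher. The rise therefore does not by itself check the labels. Whether the Nr4a1 reads include the transgene is not stated. Of the 10 macrophage markers, 7 fell and 1 rose, where 28.3% of all tested genes fell and 38.4% rose. Their summed level was 77768 to 79184 normalized reads in the GFP line and 28797 to 30458 in the NUR77 line. The sum is weighted to Lyz2, Mpeg1 and Cd68, which had the highest GFP means (26664, 16580 and 14010) and fell to 2566, 1019 and 5136. Itgam was the 1 that rose, from 4224 to 9598. Spi1 and Ptprc were not called. Of the defining markers of other cell types, Cd3e, Pdgfra, Krt8, Emcn and Ly6g were at 0 reads in every library. Among the other types' markers, S100a8 averaged 3.91 normalized reads in GFP dishes against 25.7 in NUR77 dishes, and Cd79b 0.45 against 21.9. Both passed the minimum of 10 only through the NUR77 line, so these differences are a description with no test. The other 5 neutrophil markers averaged under 1 in both lines. Dcn, a fibroblast marker below the minimum, averaged 1.33 and 8.41. NUR77 replicate 1 stood apart in 8 skeletal muscle genes (Tnni2, which fell, left out), with a sum of 167 normalized reads against 35.3 to 42.5 in the other 5 libraries, and in 6 fibroblast genes, with 97.3 against 19.0 to 32.7. Their part in the results was not tested. Without this library 8 of the antioxidant genes were called higher and 10 lower.

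The antioxidant genes did not move as a block. Of the 31 tested, 19 differed between the lines at an adjusted p under 0.05 (limma with Benjamini-Hochberg adjustment over all 11201 tested genes), 10 higher and 9 lower in the NUR77 line. That is 61.3% of those tested, where 66.7% of all tested genes were called. By direction, 32.3% were higher against 38.4% of all genes, and 29% were lower against 28.3%. A called difference reached 2-fold in 5 of them (16.1%), against 13.9% of all genes. The 3 values of the lines did not overlap in 22 (71%), against 70.6%. The median log2 fold change was -0.01 over these genes and 0.06 over all. Each of these shares lay close to the background, so the number of changed genes is no result about the antioxidant genes as a group. In bulk RNA, fewer cells expressing a gene and less RNA per cell cannot be told apart.

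**Figure D1:**
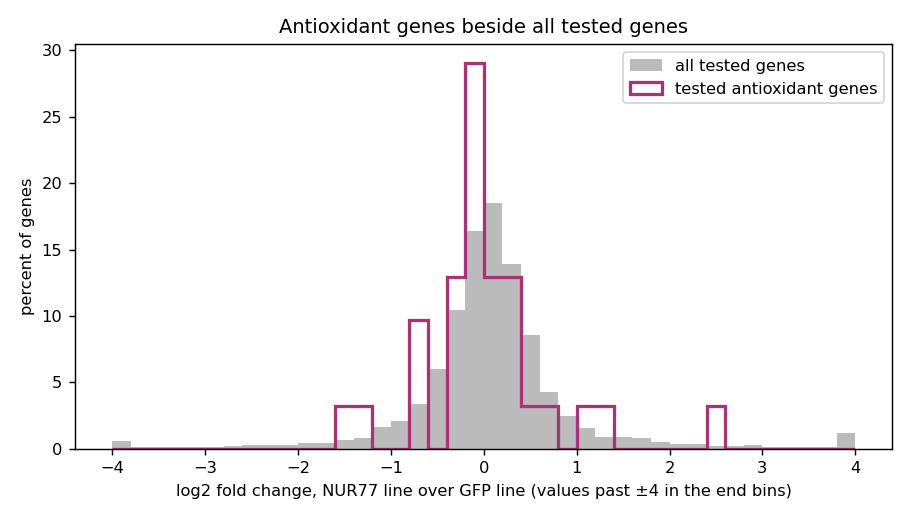
Log2 fold changes of the tested antioxidant genes (outline) and of all tested genes (grey), in bins of 0.2 as a percent of each set; the x axis is the log2 fold change of the NUR77 line over the GFP line and the y axis the percent of genes. The 31 antioxidant genes ranged from -1.42 to 2.43, around a median of -0.01.

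The scaling shifts this balance. Under TMM scaling, which lowers all log2 fold changes by about 0.07, 8 were called higher and 14 lower. Over all genes, 57.6% of calls were upward as deposited and 48.4% under TMM.

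All 3 regulators fell, where 28.3% of all tested genes did: the activator, the adaptor that degrades it and the repressor that competes with it. Nfe2l2 (ENSMUSG00000015839, chromosome 2, 75675513 to 75704641, minus strand) stood at 2679, 2652 and 2556 normalized reads in the GFP line against 1594, 1572 and 1541 in the NUR77 line. The lines lay well apart, with little spread within either. The means were 2629 ± 64.7 and 1569 ± 26.5 (SD, n = 3), a log2 fold change of -0.74 (SE 0.05, limma adjusted p = 5.5e-10). Bach1, the repressor at the same elements, went from 673 ± 29.3 to 521 ± 39.0 (-0.37, adjusted p = 1.1e-04). Keap1, the adaptor that targets NRF2 for degradation, went from 511 ± 9.96 to 445 ± 36.1 (-0.20, adjusted p = 0.015). It missed the threshold when GFP replicate 3 (adjusted p = 0.063) or NUR77 replicate 1 (0.066) was left out.

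**Figure D2:**
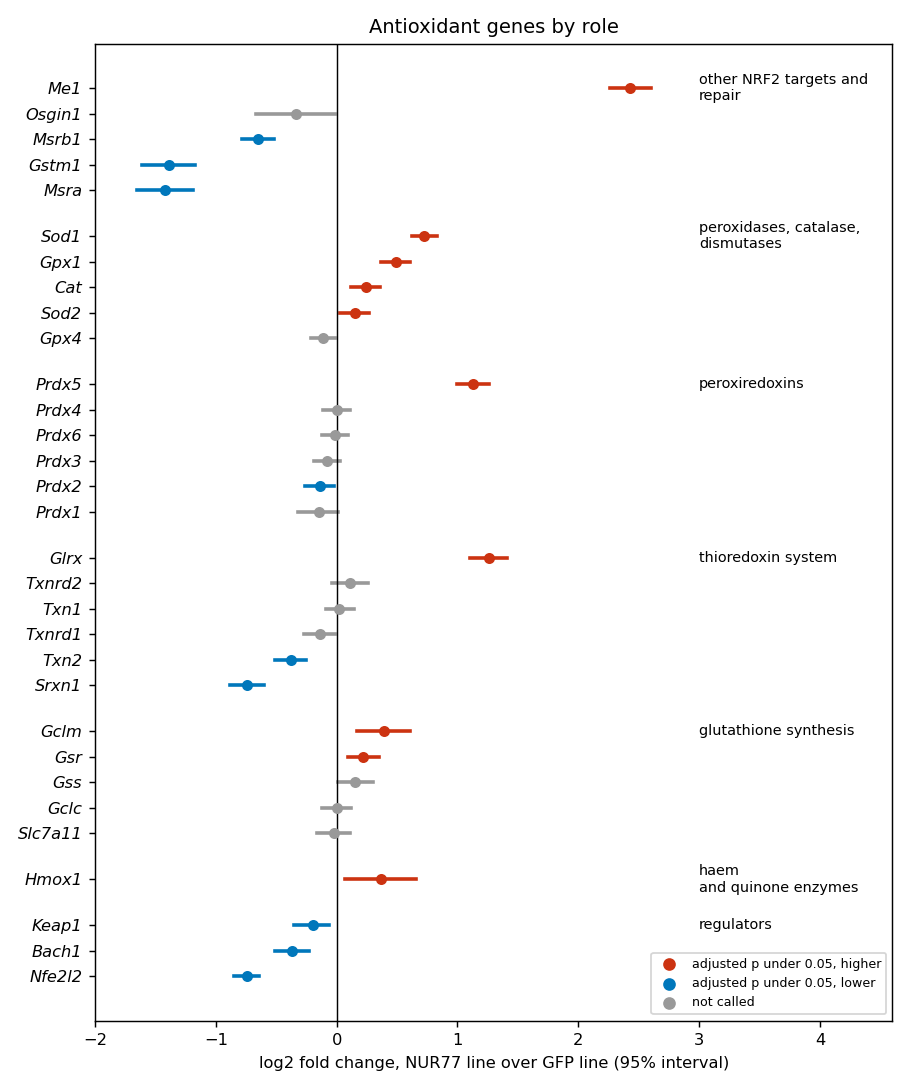
Log2 fold change of each tested antioxidant gene (point) with its 95% interval (line), by role; colour marks genes called higher, called lower or not called. The regulators lie below 0, whereas the enzymes lie on both sides, from Msra at -1.42 to Me1 at 2.43.

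Genes that textbooks give as NRF2 targets were called in 54.5% of tested cases, with 36.4% higher and 18.2% lower, against 66.7%, 38.4% and 28.3% of all tested genes. Of 12 such genes, grouped after their values were seen, 11 were tested: Me1, Gclm, Gsr and Hmox1 rose, Gstm1 and Srxn1 fell, and Gclc, Slc7a11, Txnrd1, Prdx1 and Osgin1 were not called. The remaining target, Nqo1, a quinone reductase often used as an NRF2 readout, had 2, 3 and 1 reads in the GFP libraries and 0, 0 and 1 in the NUR77 libraries. It was below the minimum of 10 normalized reads and was not tested.

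Me1, the cytosolic malic enzyme that makes NADPH from malate, rose most. Me1 (ENSMUSG00000032418, chromosome 9, 86581371 to 86695953, minus strand) stood at 204, 193 and 178 normalized reads in the GFP line against 1043, 924 and 1150 in the NUR77 line. Every NUR77 library was far above every GFP library. The means were 192 ± 12.9 and 1039 ± 113, a 5.41-fold ratio (log2 fold change 2.43, SE 0.08, limma adjusted p = 9.5e-14). Per kilobase of exon it moved from rank 29 to rank 17 among the 32 genes.

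Hmox1, haem oxygenase 1, the inducible enzyme that opens the haem ring and a classical target of both NRF2 and BACH1, differed less and less firmly. It was at 1671, 1217 and 1573 normalized reads in the GFP line against 2129, 1887 and 1715 in the NUR77 line. GFP replicate 2 was the lowest library, and the highest GFP value lay just under the lowest NUR77 value. The log2 fold change was 0.37 (SE 0.13, adjusted p = 0.033). The call was lost without NUR77 replicate 1 (adjusted p = 0.09) or NUR77 replicate 2 (0.067), and under TMM scaling (0.079).

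Glutathione synthesis showed small rises in some steps and none detected in others. Glutamate-cysteine ligase, which sets the rate, has a catalytic subunit from Gclc and a modifier subunit from Gclm. Gclc was at 737, 792 and 734 normalized reads in the GFP line against 766, 734 and 755 in the NUR77 line, overlapping values (log2 fold change 0.00, 95% interval -0.12 to 0.12, adjusted p = 0.96). Gclm was at 397, 430 and 402 against 652, 511 and 465, with NUR77 replicate 1 the highest (0.39, SE 0.10, adjusted p = 0.0045). The ratio of Gclm to Gclc within a library, per kilobase, was 0.322, 0.325 and 0.328 in the GFP line against 0.509, 0.416 and 0.368 in the NUR77 line. Such a ratio does not depend on the library's scaling.

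Gsr, glutathione reductase, which regenerates reduced glutathione with NADPH, rose from 878 ± 52.9 to 1022 ± 57.1 normalized reads (0.22, adjusted p = 0.0043). Gss, glutathione synthetase, the second step, was at 0.15 (95% interval 0.01 to 0.30, adjusted p = 0.063) and passed without GFP replicate 1 (adjusted p = 0.027). Slc7a11, the cystine importer of system xc-, overlapped between the lines at 1349 ± 51.0 and 1329 ± 114 (log2 fold change -0.02, 95% interval -0.16 to 0.11, adjusted p = 0.74).

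**Figure D3:**
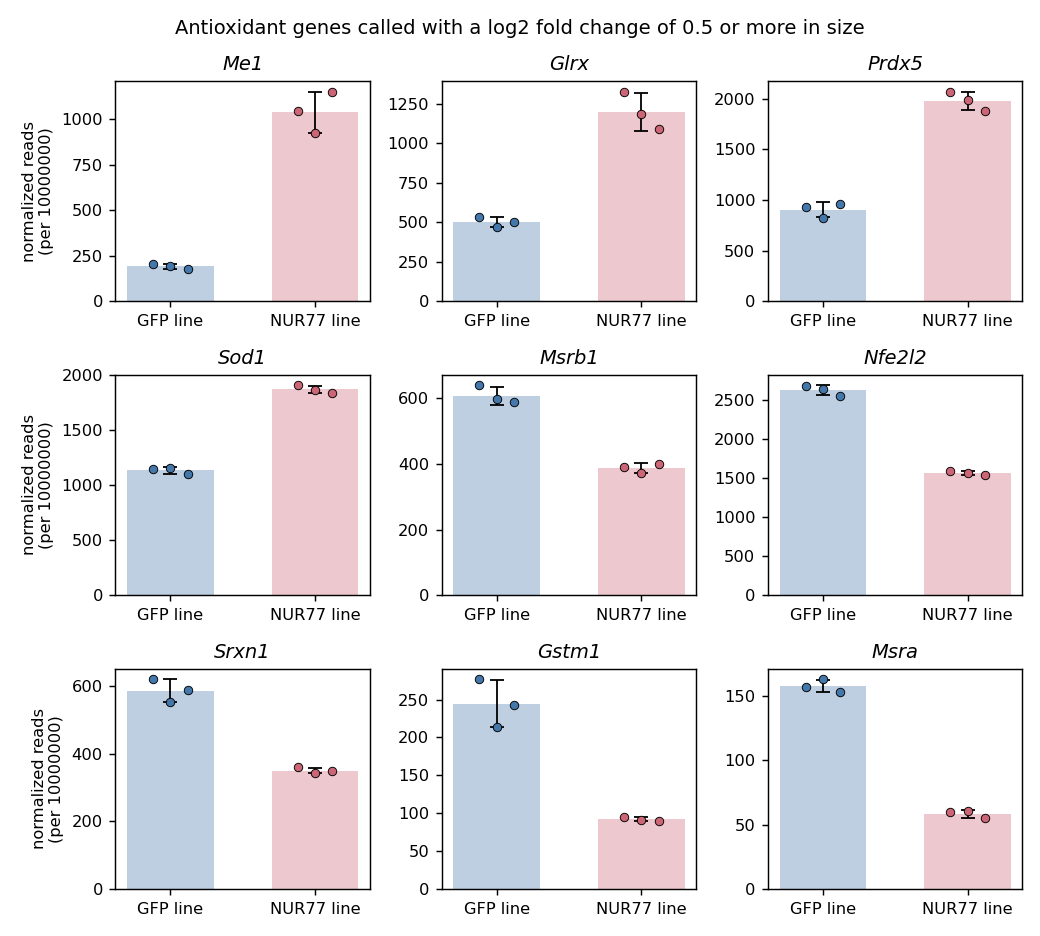
Normalized reads (per 10000000, axes from 0) of the 9 antioxidant genes called with a log2 fold change of 0.5 or more in size; bars are means of 3 libraries, whiskers the SD and points the libraries. In each of the 9 panels the points of the lines do not overlap.

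In the thioredoxin and glutaredoxin system the largest change was in Glrx, which encodes the cytosolic glutaredoxin that removes glutathione from protein thiols. Glrx (ENSMUSG00000021591, chromosome 13, 75839868 to 75850154, plus strand) was at 531, 471 and 499 normalized reads in the GFP line against 1326, 1181 and 1087 in the NUR77 line. The means of 500 ± 30.1 and 1198 ± 120 are a 2.39-fold ratio (log2 fold change 1.26, SE 0.07, adjusted p = 1.1e-10). Txn1, the cytosolic thioredoxin, overlapped between the lines at 2339 ± 117 and 2377 ± 81.7 (0.02, 95% interval -0.09 to 0.14, adjusted p = 0.70). It had the highest level per length of the 32 genes in both lines, 2225 and 2262 normalized reads per kilobase.

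Txn2, the mitochondrial thioredoxin, was at 1222, 1309 and 1228 normalized reads in the GFP line against 925, 1042 and 924 in the NUR77 line. The lines did not overlap (log2 fold change -0.38, SE 0.06, adjusted p = 2.7e-05). The ratio of Txn2 to Txn1 per kilobase was 0.134 ± 0.0121 in the GFP line against 0.101 ± 0.00492 in the NUR77 line. Txnrd1, the cytosolic thioredoxin reductase, was at -0.14 (95% interval -0.27 to -0.01, adjusted p = 0.052). It passed as lower without NUR77 replicate 1 (adjusted p = 0.017) or NUR77 replicate 2 (0.045), and under TMM scaling (0.0062). Txnrd2, its mitochondrial counterpart, was at 0.11 (adjusted p = 0.20).

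Srxn1 encodes sulfiredoxin, which repairs overoxidized peroxiredoxins. It was at 621, 553 and 589 normalized reads in the GFP line against 360, 344 and 348 in the NUR77 line (chromosome 2, 152105516 to 152111376, plus strand). The NUR77 libraries were all lower and closely grouped, with means of 588 ± 33.9 and 351 ± 8.23 (log2 fold change -0.74, SE 0.06, adjusted p = 2.7e-08). Against Prdx1, which encodes a substrate, the ratio of Srxn1 per kilobase was 0.138 ± 0.00573 in the GFP line against 0.092 ± 0.0108 in the NUR77 line.

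Among the 6 peroxiredoxins, thiol peroxidases that remove hydrogen peroxide and peroxynitrite, Prdx5 stood apart. Prdx5, whose protein is found in mitochondria, peroxisomes and cytosol, was at 932, 820 and 960 normalized reads in the GFP line against 2068, 1988 and 1884 in the NUR77 line (ENSMUSG00000024953, chromosome 19, 6906697 to 6910106, minus strand). The means were 904 ± 73.8 and 1980 ± 92.3, a 2.19-fold ratio (log2 fold change 1.13, SE 0.06, adjusted p = 6.5e-11). The other 5 had log2 fold changes between -0.15 and 0.00. Prdx3, the mitochondrial matrix form, was at 1133 ± 25.9 and 1074 ± 37.8 (-0.08, 95% interval -0.19 to 0.03, adjusted p = 0.20). It passed as lower under TMM (adjusted p = 0.018), median-of-ratios (0.032) and upper-quartile (0.026) scaling. Prdx5 relative to Prdx3 per kilobase went from 0.551 ± 0.0466 to 1.28 ± 0.104. Prdx4 of the endoplasmic reticulum (0.00, adjusted p = 0.97) and Prdx6 (-0.01, adjusted p = 0.81) overlapped between the lines.

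Prdx2 was called lower, at 1492 ± 70.1 against 1354 ± 82.1 normalized reads (-0.14, adjusted p = 0.04). It missed the threshold with GFP replicate 1 (adjusted p = 0.065), GFP replicate 3 (0.2) or NUR77 replicate 3 (0.17) left out, and without the variance trend (0.11). Prdx1, the most abundant of the family per length, was at 4653, 4502 and 4620 in the GFP line against 4750, 4078 and 3631 in the NUR77 line. NUR77 replicate 1 was the highest of the 6 libraries and NUR77 replicate 3 the lowest. Prdx1 was at -0.15 (adjusted p = 0.097) and passed without NUR77 replicate 1 (adjusted p = 0.0011) and under TMM scaling (0.024).

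Superoxide dismutases, which turn superoxide into hydrogen peroxide, together with glutathione peroxidases and catalase, which remove peroxides, gave 4 rises among 5 genes (80%), where 38.4% of all tested genes rose. Sod1, the copper-zinc form of the cytosol (chromosome 16, 90220754 to 90226329, plus strand), was at 1146, 1158 and 1098 normalized reads in the GFP line against 1909, 1866 and 1838 in the NUR77 line. The groups were far apart relative to their spread, at 1134 ± 31.9 and 1871 ± 35.8 (log2 fold change 0.72, SE 0.05, adjusted p = 1.4e-09). Sod2, the manganese form of mitochondria and a target of NF-kB, was at 818, 844 and 859 against 971, 952 and 879 (0.15, SE 0.06, adjusted p = 0.026). The threshold was missed with GFP replicate 1 (adjusted p = 0.09), NUR77 replicate 1 (0.077) or NUR77 replicate 2 (0.081) left out, and under TMM scaling (0.25). The ratio of Sod1 to Sod2 per kilobase was 3.40 ± 0.163 in the GFP line against 5.05 ± 0.187 in the NUR77 line.

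Gpx1, the cytosolic and mitochondrial glutathione peroxidase, rose from 1020, 1056 and 1052 normalized reads to 1459, 1565 and 1384 (0.49, SE 0.06, adjusted p = 6.7e-07). Cat, the peroxisomal catalase, rose from 900 ± 26.7 to 1063 ± 48.4 (0.24, adjusted p = 0.0011). Gpx4, which reduces lipid hydroperoxides in membranes and so protects from ferroptosis, was at 1780 ± 22.6 and 1651 ± 43.1. Its values did not overlap between the lines, but it was not called (-0.11, 95% interval -0.21 to -0.01, adjusted p = 0.06), and it passed as lower under TMM scaling (0.004). Gpx4 and Prdx6 each have 1 named pseudogene copy that could share reads, so their values are uncertain. Only pseudogenes named after their parent gene were counted, so copies of any gene under other names were not checked.

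Msra and Msrb1, methionine sulfoxide reductases that repair oxidized methionine, fell, while Msrb2, from the pathway lists, was at 0.03 (adjusted p = 0.9, not called) and Msrb3 was below the minimum. Msra, which acts on the S form (ENSMUSG00000054733, chromosome 14, 64122625 to 64455903, minus strand), was at 157, 163 and 153 normalized reads in the GFP line against 59.8, 60.6 and 54.9 in the NUR77 line. The means were 158 ± 5.15 and 58.4 ± 3.10 (log2 fold change -1.42, SE 0.11, adjusted p = 5.6e-09). Msrb1, the selenoprotein that acts on the R form, was at 640, 597 and 589 against 391, 371 and 400. The lines did not overlap (-0.65, SE 0.06, adjusted p = 1.1e-07).

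Gstm1, a glutathione transferase of the mu class (chromosome 3, 108012255 to 108017973, minus strand), was at 277, 214 and 243 normalized reads in the GFP line against 95.5, 91.3 and 89.9 in the NUR77 line. The NUR77 values were tightly grouped and all lower (-1.39, SE 0.10, adjusted p = 3.8e-09). The value is uncertain because closely similar genes of the same cluster can share its reads. Osgin1, an oxidative stress-induced growth inhibitor gene, overlapped between the lines at 105 ± 26.1 and 81.6 ± 9.48 (-0.34, adjusted p = 0.065). It passed as lower without GFP replicate 3 (adjusted p = 0.018) and under TMM scaling (0.027).

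**Figure D4:**
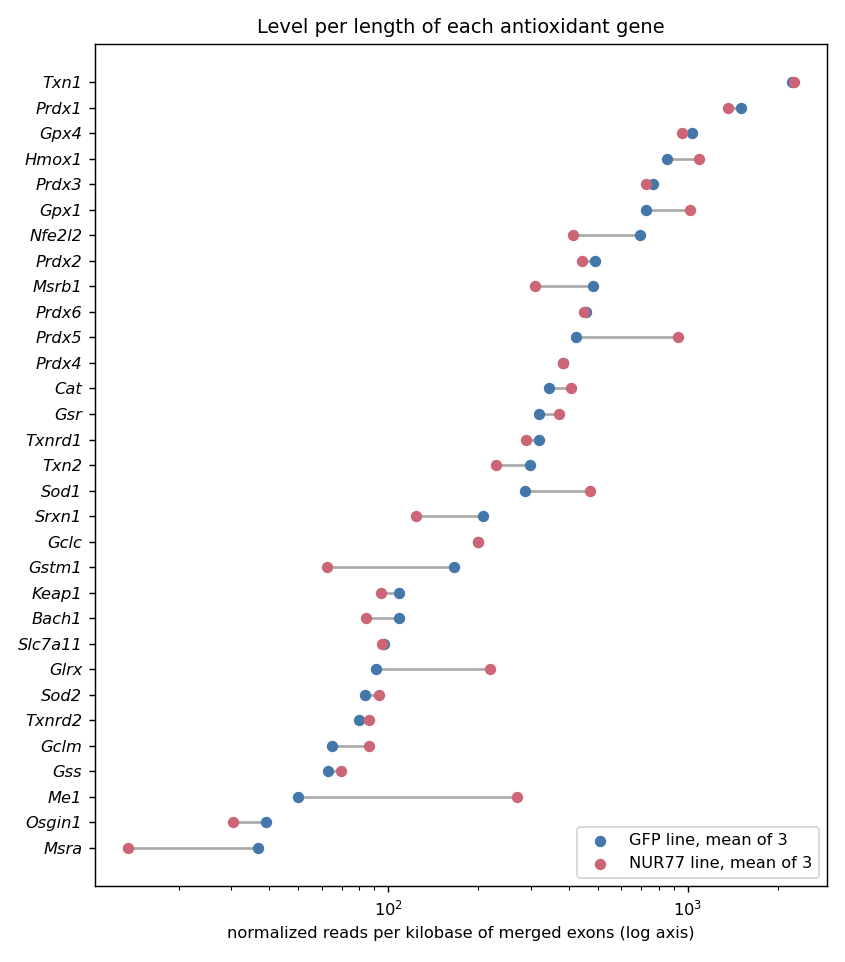
Level of each tested antioxidant gene in normalized reads per kilobase of merged exons (log axis), as the mean of 3 libraries per line, with the GFP and NUR77 means joined. Txn1 is at the top in both lines, and the longest joins are those of Me1, Msra, Gstm1, Glrx and Prdx5.

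Per kilobase of merged exons, the order of the most abundant genes was Txn1, Prdx1, Gpx4, Hmox1, Prdx3, Gpx1 and Nfe2l2 in the GFP line, from 2225 down to 692 normalized reads per kilobase. In the NUR77 line it was Txn1, Prdx1, Hmox1, Gpx1, Gpx4, Prdx5 and Prdx3, from 2262 down to 727. Nfe2l2 went from rank 7 to rank 11, Prdx5 from 11 to 6 and Sod1 from 17 to 8. Merged exons count every annotated isoform, so a gene whose long exons are rarely used appears lower than its main transcript.

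The 10 within-library ratios computed, of which 5 are given above, were chosen after the values were seen. Each of the 10 separated the lines without overlap, with an exact two-sided permutation p of 0.1, the smallest that 3 libraries against 3 allow, and an adjusted p of 0.1 over the 10. As a description of the genomic surroundings, the median log2 fold change of the nearest tested genes (24, but 15 for Prdx3) lay between -0.29 (around Prdx3) and 0.23 (around Me1 and Txn1).

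The other genes of the pathway were taken from 8 lists with 120 entries, of which 91 were tested. Of these, 33 rose and 30 fell (69.2% called, against 66.7% of all genes), with a median log2 fold change of 0.03. Under TMM scaling 29 rose and 35 fell. The lists differed in balance. Over all tested genes 38.4% rose and 28.3% fell, the shares to set beside those below, and no list was tested against them. The largest called changes of each list, among genes whose higher line averaged at least 50 normalized reads, are given next.

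NRF2 partners and the machinery that degrades it gave 3 rises (30%) and 3 falls (30%) among 10 tested. Sqstm1, the autophagy receptor p62 that can bind KEAP1, fell from 8969 ± 195 to 5485 ± 333 normalized reads (-0.71, adjusted p = 2.1e-09). Mafk, a small MAF partner (-0.38), and Rbx1, a subunit of the ubiquitin ligase (-0.30), also fell; Rbx1 is uncertain, since it has 1 named pseudogene copy that could share reads. Cul3, the scaffold of that ligase (0.27), and Nfe2l1, which encodes the related factor NRF1 (0.35), rose. Dpp3, a peptidase that binds KEAP1, sat at the threshold (0.16), overlapped between the lines, and missed it with GFP replicate 1 (adjusted p = 0.13), GFP replicate 2 (0.16) or NUR77 replicate 2 (0.28) left out, and under TMM (0.27), median-of-ratios (0.18) and upper-quartile (0.21) scaling.

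Of 7 haem and iron genes tested, 4 fell (57.1%) and 2 rose (28.6%), against 28.3% and 38.4% of all tested genes, with a median of -0.99. Blvra and Blvrb, which encode biliverdin reductases A and B, moved in opposite directions. Blvra was at 1300, 1203 and 1301 normalized reads in the GFP line against 438, 420 and 404 in the NUR77 line (-1.59, SE 0.06, adjusted p = 3.1e-13). Blvrb was at 254, 231 and 270 against 577, 640 and 531 (1.21, SE 0.08, adjusted p = 8.4e-10). Fth1, the ferritin heavy chain, fell from 64881 ± 2458 to 29635 ± 692 (-1.13, adjusted p = 8.5e-13). Slc40a1, the iron exporter ferroportin (-1.49), fell as well, and Fech, which inserts iron into protoporphyrin to make haem (0.52), rose.

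Of 11 genes tested from the list for NADPH supply, 4 rose (36.4%) and 3 fell (27.3%), close to the shares of all tested genes (median 0.02). The list also holds enzymes that do not themselves make NADPH, such as the NAD kinases. Nadk, which makes NADP from NAD in the cytosol, rose from 1807 ± 47.7 to 4498 ± 357 normalized reads (1.31, SE 0.06, adjusted p = 3.0e-12). Nadk2, the mitochondrial NAD kinase (0.63), and Me2, a mitochondrial malic enzyme (0.85), rose too. Idh1, the cytosolic isocitrate dehydrogenase (-0.47), Nnt, the mitochondrial transhydrogenase (-0.31), and H6pd (-0.28) fell.

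Glutathione transferases and detoxifying enzymes were called in 16 of 17 tested cases (94.1%, against 66.7% of all tested genes), 7 higher and 9 lower (median -0.31). The calls of Ugdh, Ugt1a6a and Cbr3 were lost in 6 of 16, 5 of 15 and 2 of 15 settings. Ugt1a6a, at 16.3 and 7.79 normalized reads, overlapped between the lines and passed the minimum only through the GFP line. It and Gstt1, described below, are among the 16 calls, so the 94.1% rests in part on genes that passed through 1 line. A further 14 genes were below the minimum and 1 had no match in the table. Gstt1, of the theta class, was at 9.06, 2.51 and 9.15 normalized reads in the GFP line against 337, 369 and 305 in the NUR77 line. It had 4 to 14 reads per GFP library and passed the minimum only through the NUR77 line, so its difference is given as a description with no test. Gstp1, of the pi class, rose from 10.8 ± 2.07 to 162 ± 11.5 (3.80, adjusted p = 4.4e-12) and Gstt3 from 61.9 ± 6.40 to 143 ± 22.3 (1.18). Mgst2 (-1.11), Mgst3 (-1.06) and Gstt2 (-1.05) fell. Reads of such paralogs, Gstp1 and Gstp2 among them, can be shared, so these values are uncertain.

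Glutathione turnover and cysteine supply gave 12 rises (85.7%) and 1 fall (7.14%) among 14 tested, against 38.4% and 28.3% of all tested genes (median 0.47). Slc3a2, counted among the rises, overlapped between the lines and lost its call in 6 of 16 settings, and Cbs, at 3.99 and 36.7 normalized reads, passed the minimum only through the NUR77 line. Chac1, which degrades glutathione, rose from 216 ± 52.8 to 391 ± 23.3 normalized reads (0.88, adjusted p = 8.1e-04). Abcc1, an exporter of glutathione and its conjugates, rose from 2391 ± 15.0 to 3986 ± 24.6 (0.74, adjusted p = 2.8e-10), and Ggt7 rose at a low level (1.07). The fall was Anpep, a surface aminopeptidase that splits cysteinylglycine, from 5225 ± 235 to 525 ± 47.3 (-3.32, adjusted p = 1.1e-16). The change of this list was not tested against other lists.

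Other peroxidases and related genes gave 2 rises (25%) and 2 falls (25%) among 8 tested. Park7, which encodes the oxidant-sensitive protein DJ-1, rose from 1113 ± 64.0 to 1848 ± 51.3 normalized reads (0.73, adjusted p = 3.9e-09), and Aifm2, the ferroptosis suppressor FSP1, rose by a smaller amount (0.30). Sesn1, a sestrin, fell from 500 ± 7.93 to 198 ± 7.98 (-1.33, adjusted p = 3.0e-11), as did Pon2 (-0.65).

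Thioredoxin-fold genes gave 2 rises (11.8%) and 6 falls (35.3%) among 17 tested. Txnip, which binds and inhibits thioredoxin, was at 7544, 9164 and 8166 normalized reads in the GFP line against 6524, 5376 and 3962 in the NUR77 line. The NUR77 libraries were spread widely (-0.67, SE 0.21, adjusted p = 0.04), and the threshold was missed with GFP replicate 1 (adjusted p = 0.061), GFP replicate 2 (0.1), GFP replicate 3 (0.092) or NUR77 replicate 2 (0.08) left out. Nxn, nucleoredoxin, rose (1.12), and Tmx1 (-0.63) and Txndc5 (-0.45), of the endoplasmic reticulum, fell. Glrx2 was called higher (0.19, adjusted p = 0.034), and missed the threshold with GFP replicate 2 (0.15), NUR77 replicate 1 (0.064) or NUR77 replicate 3 (0.068) left out, without the filter (0.058), and under TMM (0.18), median-of-ratios (0.12) and upper-quartile (0.14) scaling.

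Selenocysteine synthesis serves Gpx1, Gpx4, Msrb1 and the thioredoxin reductases. Of its 7 genes, 2 fell (28.6%) and 1 rose (14.3%). Sephs2, which makes the selenium donor, fell from 1546 ± 39.3 to 1049 ± 45.0 normalized reads (-0.56, adjusted p = 7.3e-08), and Scly, selenocysteine lyase, from 942 ± 30.2 to 406 ± 19.0 (-1.21, adjusted p = 1.4e-11). Eefsec, the elongation factor for selenocysteine, rose (0.29, adjusted p = 0.0013).

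**Figure D5:**
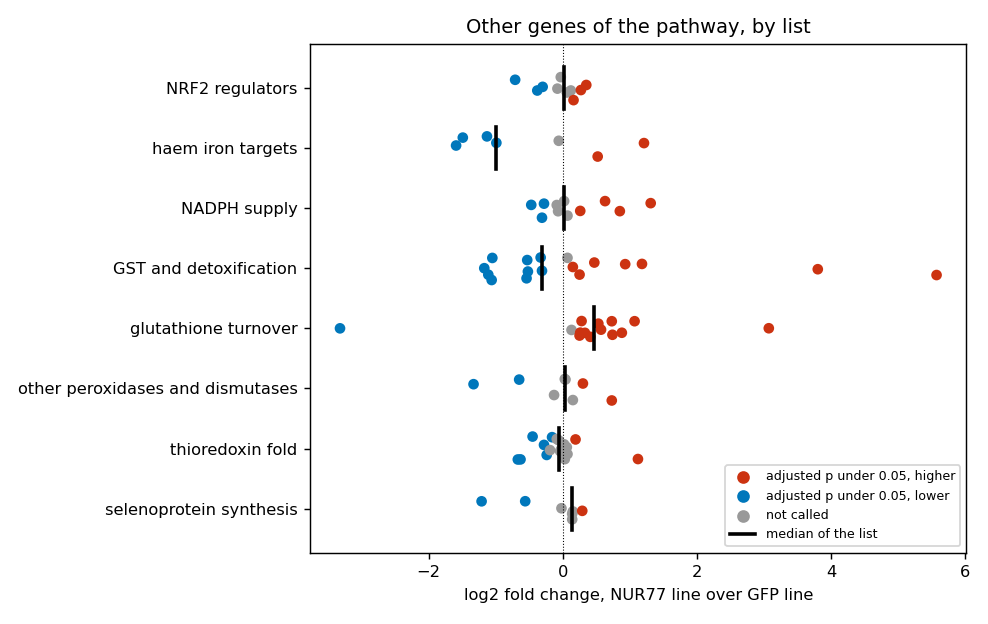
Log2 fold change of each tested gene in 8 lists of other pathway genes (rows), with colour for genes called higher, called lower or not called and a black bar for the median of the list; points are spread vertically only for legibility. Medians ran from -0.99 for haem and iron genes to 0.47 for glutathione turnover.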

How the data were processed

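Poly(A) RNA of 6 dishes was sequenced from strand-specific libraries, per the labels' protocols. The authors deposited log2 values, read as log2(normalized reads + 1). With the log undone and the 1 subtracted, each library summed to 10000000, and whole reads were recovered for 100% of values within 0.1 read. The submitters' processing notes name TopHat2 2.1, HTSeq, DESeq2 and mm10; the role of each, the strand setting and the annotation were not given in those notes. Symbols and coordinates came from GENCODE (GRCm38) and promoter windows from RefSeq.

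Values as log2(normalized reads + 1) were fitted with limma 3.58.1 (R 4.3.3; trend, robust) on genes with a mean of 10 or more; fold changes on this scale understate low genes. Values are means ± SD of 3 libraries. The fit was run on simulated data in which few genes changed, in both directions. That run does not test it where most genes are called, as here. Alternatives varied the pseudocount, filter, scaling, variance model, weights (voom), replicate block and libraries left out. Same-numbered libraries were treated as unpaired. All 32 genes are accounted for; those called with a log2 fold change of 0.5 or more in size get every library's value, and each list names up to 3 rises and 3 falls with a mean of 50 or more. Members and lists were chosen with earlier results of these data known. Some cell type markers are not reported here.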

Additional observations from a re-analysis of the deposited data

How the results depend on the processing

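Across 16 alternative settings, 15 of the 19 antioxidant genes called kept their call and direction in every one; Keap1, Hmox1, Prdx2 and Sod2 lost it in some, with the direction unchanged, and 6 genes that were not called passed in some. Another 5 that were never called (Gclc, Slc7a11, Txn1, Prdx4 and Prdx6) changed sign in some. The count called lower was 14 under TMM, median-of-ratios and upper-quartile scaling (8 called higher in each); the pathway lists then held 29, 30 and 29 rises and 35, 34 and 35 falls. In the same order, the median log2 fold change of the antioxidant genes was -0.089, -0.072 and -0.077. With each library left out in turn, 8 to 10 were called higher and 8 to 10 lower, the median lay between -0.023 and 0.003, the pathway lists held 30 to 33 rises and 27 to 32 falls, and 6749 to 7257 of all genes were called. The largest neighbourhood median in size was 0.365 with 6 and 0.264 with 25 genes on each side. Same-numbered libraries shared only a number (correlations of deviations 0.002, 0.114 and 0.045); not every library correlated best with its own number. With the replicate block 11 were called higher, 12 lower, and 7585 of all genes were called. Nqo1 and the transferases below the minimum had too few reads to be tested at this depth.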
